A study of Mus musculus with 9 samples.

Results

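Axon guidance genes encode the cues that steer growing axons and migrating cells, and the receptors that read those cues. The genes described here are those whose annotated symbol names a semaphorin, a plexin, an ephrin, an Eph receptor, a Slit, a Robo or an Unc5 receptor, together with the neuropilins Nrp1 and Nrp2, the netrins Ntn1 and Ntn4, and the netrin receptors Dcc and Neo1. The Slitrk genes were left out, as were Unc50 and Unc5cl, which are not netrin receptors. A gene was represented by 1 probe set, that with exactly 1 gene symbol and the highest mean log2 intensity over all 9 arrays. On these terms 67 guidance genes were found among 18193 genes. Of the 67, 64 were bright enough to be tested, among 13302 genes tested in all. Epha1, Epha6 and Slit3 were not tested, because they lay above their own array's 40th percentile on fewer than 3 of the 9 arrays. Ephb2 is not among the 67, because no probe set carried its symbol alone.

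Transcripts were measured on Affymetrix 3-prime arrays in 3 groups of 3 mouse samples, which the series describes as independent biological repeats. DKK1-treated ESC-RPCs were retinal progenitor-type cells made from embryonic stem cells and given 1 ng/ml recombinant DKK1, a secreted antagonist of Wnt signalling, for 1 day. Untreated ESC-RPCs came from the same procedure without DKK1. Primary RPCs were dissociated from the neural retina of C57 mouse pups at postnatal day 1, and the labels call them cultured.

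Both ESC-RPC groups came from 1 embryonic stem cell line, 46C, which was made by gene targeting in E14Tg2a.IV cells and is known as a Sox1 reporter line. Embryoid bodies were grown for 3 days with SB431542, which blocks Nodal and activin receptors, and were then plated on Matrigel in medium without retinoic acid. Sox1-positive cells, 35.8% of the culture, were sorted at day 7 and kept in 20 ng/ml basic fibroblast growth factor with 10 µM DAPT, which blocks Notch activation. Source cell, strain, developmental age and culture history all differ between the ESC-RPC and primary groups, so their parts in any difference cannot be told apart. In these bulk samples, fewer cells of a type and less RNA per cell cannot be told apart either.

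Guidance cues act in pairs with their receptors. Netrins attract axons through Dcc and can repel them through Unc5 receptors, and Slits repel axons that carry Robo receptors. Ephrins are membrane-bound ligands of the Eph receptor tyrosine kinases, and in the retina and its brain targets their gradients help to order the map of ganglion cell axons. Secreted class 3 semaphorins act mostly through neuropilins with plexins as the signalling partner, while membrane-bound semaphorins mostly bind plexins directly.

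Values are MAS5 intensities, which are linear and scaled on each array to a trimmed mean of 500. Primary replicate 2 stood apart: its 40th percentile was 52.9, against 44.7 to 47.7 on the other 8 arrays. The marker lists differed widely between the groups. Of 8 retinal progenitor markers 7 were on the array, and their summed intensity was 9950 to 11487 in DKK1-treated cells and 10251 to 11874 in untreated cells, against 29417 to 33731 in primary cells. Of the 7, the eye-field genes Rax, Six6, Pax6, Six3 and Lhx2 were lower in both ESC-RPC groups than in primary cells. The other 2 were higher, Sfrp2 by 2.8-fold in DKK1-treated cells and 2.94-fold in untreated cells and Fgf15 by 2.42-fold and 2.87-fold. Rax lay between 1.66 and 30.9 in DKK1-treated cells and between 7.47 and 50.2 in untreated cells, against 3185 to 4996 in primary cells, so this defining retinal gene was near background in cells labelled as retinal progenitors.

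Lists for further cell types differed along the same contrast. The 9 mesenchyme markers summed to 18420 to 22019 in DKK1-treated cells and 18162 to 22197 in untreated cells, against 646 to 902 in primary cells, where Lum, Twist1 and Prrx1 were dim. The 7 pluripotency markers summed to 20198 to 21555 and 17477 to 21068 in the DKK1-treated and untreated cells, against 243 to 330 in primary cells, where Nanog, Zfp42, Dppa4 and Tdgf1 were dim. The 6 astrocyte markers summed to 18384 to 21065 and 18299 to 21125 in the DKK1-treated and untreated cells, against 1689 to 1969 in primary cells, where Gfap and Aqp4 were dim. Most of the ESC-RPC sum was Gja1, with means of 8446 and 9295, and Aldoc, with means of 8924 and 7944. Mean Gfap was 139.4 and 110.9. S100b was not tested: it was dim in both ESC-RPC groups and above the 40th percentile on 2 of the 3 primary arrays. The 5 general neural progenitor markers summed to 17055 to 18810 and 17326 to 18947, against 12122 to 15493 in primary cells, where Sox1 and Pax3 were dim. Sox1, Sox2 and Pax3 were higher in both ESC-RPC groups, Nes in untreated cells, and Msi1 was lower in both. The 9 endothelial markers summed to 828 to 893 and 779 to 895, against 6336 to 8103 in primary cells. Most of that primary signal was Kdr, at 5689, 5186 and 7316. Kdr and Cldn5 were lower in both ESC-RPC groups, while Emcn was higher, by 4.27-fold in DKK1-treated cells and 3.77-fold in untreated cells. Pecam1, Esam and Egfl7 were not called, Cdh5 was not tested, and Tek and Tie1 were dim in all 3 groups. The 8 microglial markers summed to 115 to 223 and 152 to 184, against 926 to 1618, and C1qa, C1qb, C1qc, Ctss, Aif1 and Tyrobp were dim in both ESC-RPC groups. The 11 measured ganglion cell and neuron markers summed to 30955 to 36195 and 32641 to 35837, against 28312 to 37086 in primary cells. These ranges overlapped, but 3 of the 11 genes were higher and 6 lower in each ESC-RPC group. Sncg was 34.5-fold lower in DKK1-treated cells and 46.2-fold lower in untreated cells and Isl2 5.22-fold and 7.19-fold lower, while Tubb3 was 3.34-fold and 3.51-fold higher and Elavl4 3.02-fold and 3.14-fold higher. The part of these differences in cell makeup in the guidance gene results was not tested.

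**Figure D1:**
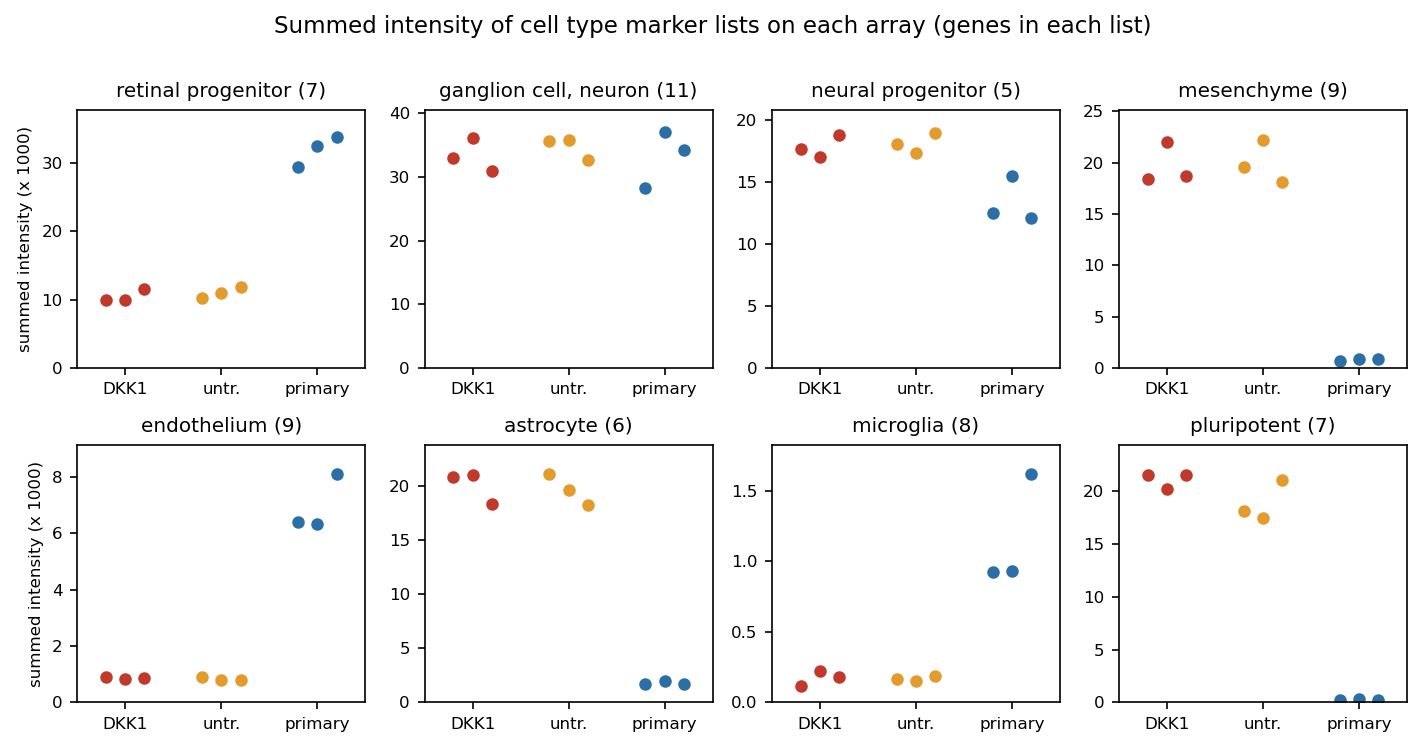
Summed MAS5 intensity, divided by 1000, of 8 cell type marker lists on each array. Each point is 1 array, DKK1-treated, untreated ("untr.") and primary cells run from left to right, and the number of genes summed is in brackets. The sum of retinal progenitor markers was lower in every ESC-RPC array than in every primary array. Sums of mesenchyme, astrocyte and pluripotency markers were higher, and those of neuron markers, whose genes moved both ways, overlapped.

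Against primary cells, more of the guidance genes tested were higher than lower in the ESC-RPCs, while the share called was little above that of all genes. In DKK1-treated cells against primary cells 27 were higher and 10 lower at an adjusted p below 0.05 (limma, Benjamini-Hochberg over all genes), and 27 were not called. The 37 called genes were 57.8% of the members, against 52.8% of all genes. By direction, 42.2% of members were higher, against 26.0% of all genes, and 15.6% were lower, against 26.8% of all genes. In untreated cells against primary cells 26 were higher, 10 lower and 28 not called, which is 56.2% called, against 53.0% of all genes. By direction, 40.6% of members were higher, against 26.1% of all genes, and 15.6% were lower, against 26.8%. The median log2 difference over the members was 0.32 in DKK1-treated cells and 0.36 in untreated cells, while the median over all genes was -0.01 in both comparisons. The medians of the members were the same with the genes that were dim in 1 group set at their bounds.

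Differences were larger than 1 on the log2 scale for 23 called members in DKK1-treated cells (35.9% of members, against 21.1% of all genes), and for 22 called members in untreated cells (34.4%, against 20.7% of all genes). These shares and the split by direction are descriptions, and no test of the members as a list was made. Both comparisons use the same 3 primary arrays, so their results are not independent. Without primary replicate 2 the counts were 29 higher and 13 lower in each comparison. The share of all genes called in that fit is not given, so whether the rise is particular to guidance genes cannot be told. The 10 genes lower in both ESC-RPC groups were Sema4d, Sema7a, Plxnd1, Efnb2, Epha2, Epha5, Epha8, Ephb3, Robo2 and Unc5a, and 23 genes were higher in both. Among the genes counted, Epha8 was bright enough to be tested only through the primary arrays. Ephb4, counted as higher, was so only through the ESC-RPC arrays.

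Of 32 receptors 16 were higher and 7 lower in DKK1-treated cells (71.9% called, against 52.8% of all genes), and 14 were higher and 7 lower in untreated cells (65.6%, against 53.0%). Of 32 ligands 11 were higher and 3 lower in DKK1-treated cells (43.8% called), and 12 were higher and 3 lower in untreated cells (46.9%). The difference between ligands and receptors was not tested.

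**Figure D2:**
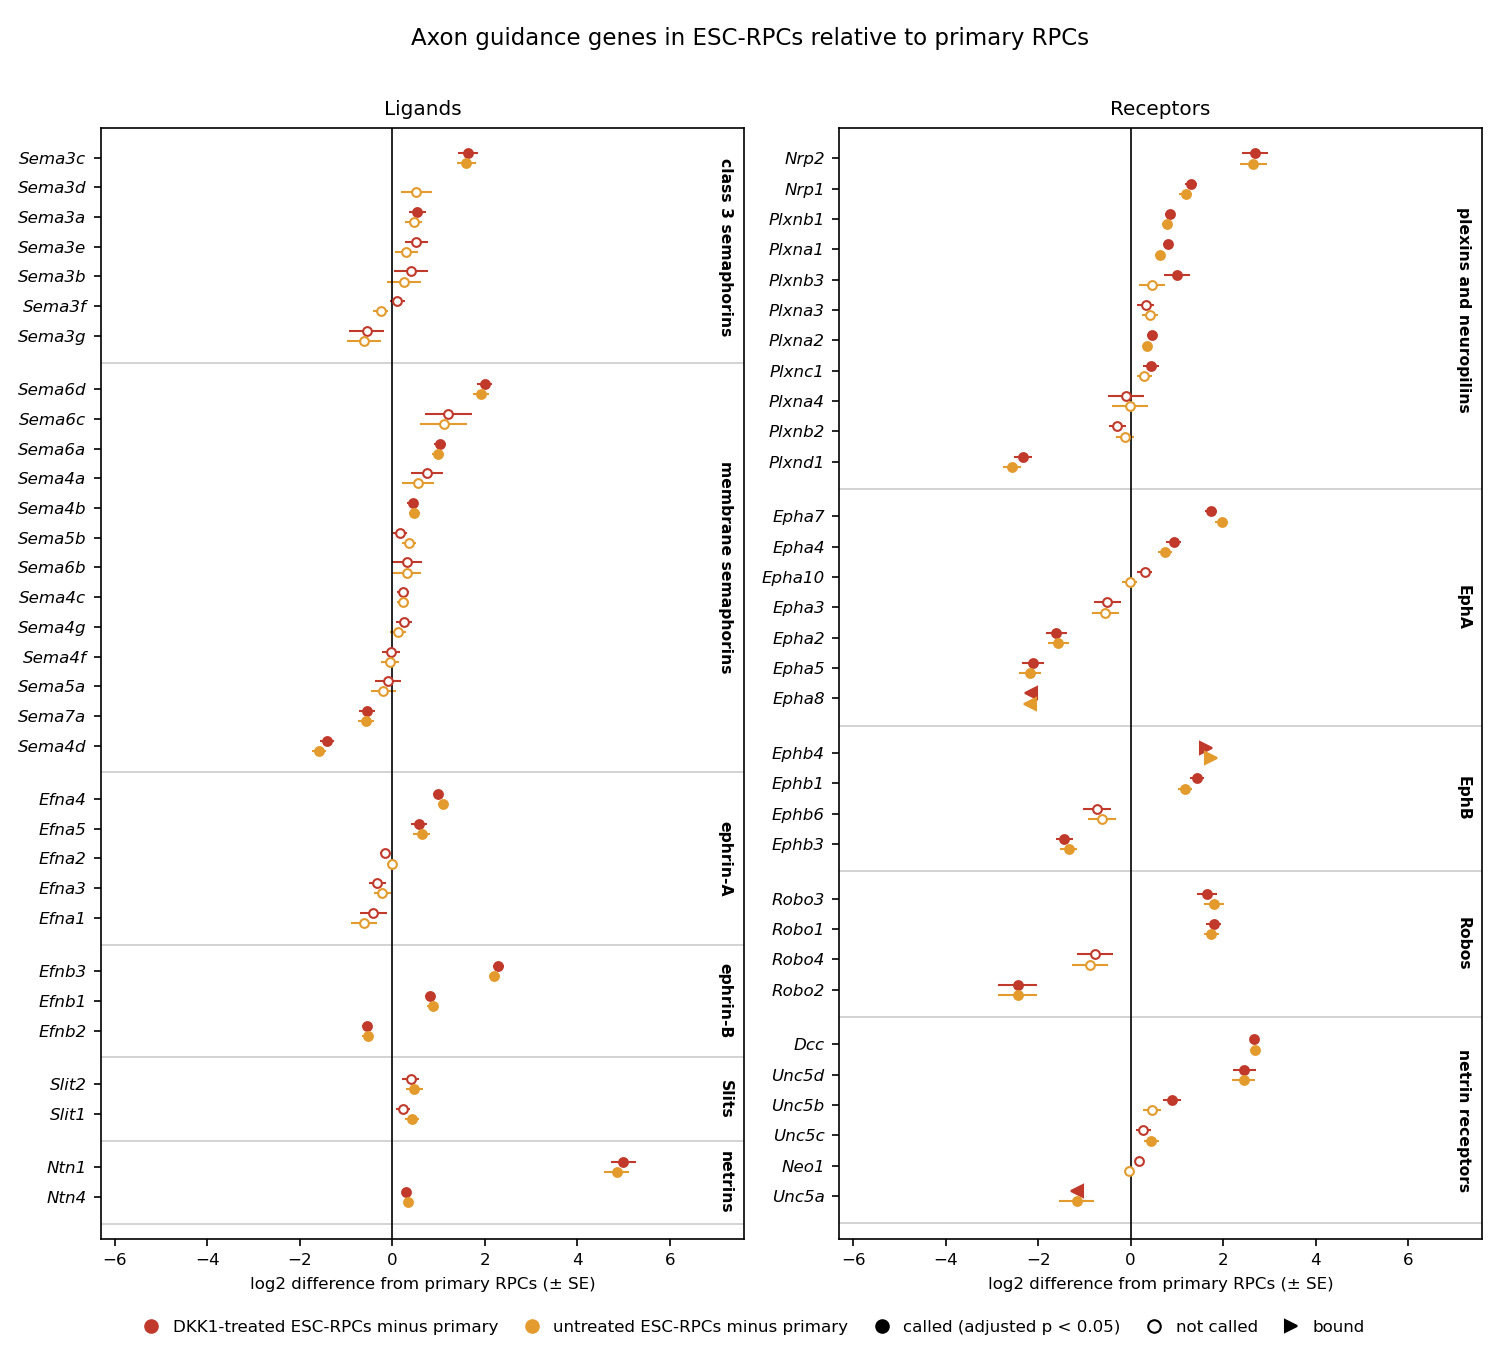
Log2 difference from primary RPCs (x axis, ± SE from limma, 3 arrays per group) for the 64 guidance genes tested, ligands on the left and receptors on the right, grouped by family. For each gene the upper point is DKK1-treated minus primary and the lower point untreated minus primary, filled where called. Triangles are bounds for genes dim in 1 of the 2 groups, the true difference lying beyond them, and Sema3d in DKK1-treated cells is not drawn because it was dim there. Ntn1 lies farthest to the right, and within the Eph, Robo and netrin receptor families filled points lie on both sides of 0.

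Promoter windows are shown for 2 pairs of receptors whose members lay on opposite sides of primary cells. Epha7 was higher and Epha5 lower in ESC-RPCs, and Nrp2 was higher and Plxnd1, a plexin that binds class 3 semaphorins, was lower. Each window runs from 250 bases before to 50 bases after the RefSeq gene start in GRCm38.p6, and is written 5′ to 3′ on the strand of the gene. Capitals mark matches to GGGCGG (a GC box), TAATTA (a core bound by many homeodomain proteins), TAATCC (a core bound by Otx-type homeodomain proteins) and CTTTGA (a core bound by TCF factors), on either strand.
Epha7, chr4:28812881-28813180, plus strand: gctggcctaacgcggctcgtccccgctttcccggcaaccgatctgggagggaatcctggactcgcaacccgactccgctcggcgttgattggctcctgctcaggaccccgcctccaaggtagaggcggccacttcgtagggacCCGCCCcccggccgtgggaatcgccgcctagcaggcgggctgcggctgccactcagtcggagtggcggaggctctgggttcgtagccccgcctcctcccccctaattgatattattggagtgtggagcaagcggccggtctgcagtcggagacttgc
Epha5, chr5:84417333-84417632, minus strand: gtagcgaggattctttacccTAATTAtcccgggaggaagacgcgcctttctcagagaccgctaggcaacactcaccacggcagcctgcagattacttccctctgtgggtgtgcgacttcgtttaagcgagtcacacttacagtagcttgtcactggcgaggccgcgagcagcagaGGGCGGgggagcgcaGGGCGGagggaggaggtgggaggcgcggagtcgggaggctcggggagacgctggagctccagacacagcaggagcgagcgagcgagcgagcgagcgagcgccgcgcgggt
Nrp2, chr1:62703067-62703366, plus strand: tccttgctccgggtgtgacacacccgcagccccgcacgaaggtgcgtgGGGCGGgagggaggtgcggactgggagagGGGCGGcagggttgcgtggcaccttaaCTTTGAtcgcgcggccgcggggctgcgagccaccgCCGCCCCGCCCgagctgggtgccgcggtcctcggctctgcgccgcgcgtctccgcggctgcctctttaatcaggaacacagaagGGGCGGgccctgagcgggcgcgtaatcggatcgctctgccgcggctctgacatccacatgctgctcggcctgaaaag
Plxnd1, chr6:115994956-115995255, minus strand: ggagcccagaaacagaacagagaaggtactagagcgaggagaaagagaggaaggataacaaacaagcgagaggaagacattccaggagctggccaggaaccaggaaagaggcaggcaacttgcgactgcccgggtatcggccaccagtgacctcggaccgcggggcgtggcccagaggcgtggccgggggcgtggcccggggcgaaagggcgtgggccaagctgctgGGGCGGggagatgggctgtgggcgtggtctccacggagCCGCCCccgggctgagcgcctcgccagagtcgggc

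All 4 windows held GGGCGG on one strand or the other, with 1 match for Epha7, 2 for Epha5, 5 for Nrp2 and 2 for Plxnd1. They held 28, 30, 37 and 23 CG dinucleotides in that order, and the median over all 32851 mouse windows was 7. TAATTA occurred in the Epha5 window alone of these 4, and CTTTGA in the Nrp2 window alone. RefSeq windows were matched for 57 of the 67 guidance genes. GGGCGG was found in 76.5% of the 17 windows of genes higher in both ESC-RPC groups and in 80.0% of the 10 windows of genes lower in both, against 35.7% of all windows. TAATTA was in 5.88% and 10.0% of these, against 5.29% of all. CTTTGA was in 11.8% and 10.0%, against 16.0% of all, and TAATCC in 5.88% and none, against 7.06% of all. The 32851 windows were not cut to 1 per gene or to the genes tested, while each guidance gene had 1 window. The shares and CG counts set beside them are therefore not like for like. A match describes the sequence only.

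Both netrins and 3 of 6 netrin receptors were called higher in each ESC-RPC group, and 1 receptor was called lower. Of the receptors 66.7% were thus called, against 52.8% of all genes in DKK1-treated cells and 53.0% in untreated cells. Ntn1 showed the largest rise of any guidance gene tested. Ntn1, netrin 1, is the secreted attractant made by the floor plate of the neural tube and, in the eye, at the optic disc. Its intensity was 4143, 4153 and 5265 in DKK1-treated cells and 3842, 3727 and 4706 in untreated cells, against 96.6, 238 and 122 in primary cells. Every ESC-RPC array lay far above every primary array. The log2 difference from primary cells was 5.00 ± 0.27 in DKK1-treated cells (SE, 31.9-fold, adjusted p = 2.06e-07) and 4.85 ± 0.27 in untreated cells (28.9-fold, adjusted p = 2.5e-07).

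Dcc, the receptor through which netrin 1 attracts axons, was 4558, 4719.7 and 4923 in DKK1-treated cells and 4579.8, 4679 and 5142 in untreated cells, against 837, 686 and 726 in primary cells. The arrays within each group were close together and the groups were far apart. Dcc rose by 2.66 ± 0.09 on the log2 scale in DKK1-treated cells (6.33-fold, adjusted p = 9.1e-09) and by 2.68 ± 0.09 in untreated cells (6.42-fold, adjusted p = 7.79e-09). Unc5d, a netrin receptor that can also bind the adhesion protein Flrt3, was 296, 402 and 235 in DKK1-treated cells and 287, 364 and 258 in untreated cells, against 60.0, 42.2 and 66.2 in primary cells. It was 5.51-fold higher in DKK1-treated cells (adjusted p = 1.6e-05) and 5.44-fold higher in untreated cells (adjusted p = 1.7e-05). In primary cells Unc5d was close to the 40th percentile, below it on 1 of the 3 arrays.

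Unc5a, a repulsive netrin receptor, ran the other way. It was 25.1, 21.9 and 10.4 in DKK1-treated cells and 49.4, 47.1 and 43.8 in untreated cells, against 119, 86.5 and 113 in primary cells. The 3 groups did not overlap, and all 3 DKK1-treated arrays lay below their own 40th percentile. Unc5a was at least 2.23-fold lower in DKK1-treated cells (adjusted p = 0.000275) and 2.25-fold lower in untreated cells (log2 difference -1.17 ± 0.38, adjusted p = 0.0251). The call in untreated cells was lost without any 1 of the untreated arrays or without primary replicate 1 or 3, at adjusted p between 0.0549 and 0.0745.

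Unc5b, the Unc5 receptor best known from blood vessels, was 242, 314 and 246 in DKK1-treated cells and 180.2, 241 and 178 in untreated cells, against 159, 160.0 and 116 in primary cells. It was called higher in DKK1-treated cells (1.85-fold, adjusted p = 0.00311) and not in untreated cells (1.38-fold, adjusted p = 0.0656), where it was called without primary replicate 2 (log2 difference 0.55, adjusted p = 0.0486). Unc5c, a repulsive netrin receptor known from mouse mutants with a malformed cerebellum, was 248, 284 and 312 in DKK1-treated cells and 365, 296 and 292 in untreated cells, against 193, 264 and 243 in primary cells. It was called in untreated cells (1.37-fold, adjusted p = 0.0385) and not in DKK1-treated cells (1.21-fold, adjusted p = 0.18), whose arrays overlapped the primary ones. The untreated call was lost without DKK1 replicate 2, any 1 untreated array, or primary replicate 1 or 3, at adjusted p between 0.0524 and 0.15.

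Neo1, neogenin, binds netrins and the repulsive guidance molecules of the Rgm family. It was 2774, 2977 and 2775 in DKK1-treated cells and 2491, 2554 and 2384 in untreated cells, against 2237, 2561 and 2781 in primary cells, and no call was made against primary cells. The log2 difference was 0.18 ± 0.09 in DKK1-treated cells (adjusted p = 0.124) and -0.02 ± 0.09 in untreated cells (adjusted p = 0.844). Without primary replicate 3 the comparison of DKK1-treated cells was called, at 0.25 (adjusted p = 0.0348). Ntn4, a netrin found in basement membranes, was 699, 699 and 729.7 in DKK1-treated cells and 768, 718 and 713 in untreated cells, against 548, 586 and 604 in primary cells. Its groups did not overlap but the difference was small, 1.22-fold in DKK1-treated cells (adjusted p = 0.0226) and 1.27-fold in untreated cells (adjusted p = 0.011). The DKK1-treated call was lost without any 1 DKK1-treated array or primary replicate 1 (adjusted p 0.0503 to 0.072), and the untreated call without untreated replicate 1 (adjusted p = 0.0532).

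**Figure D3:**
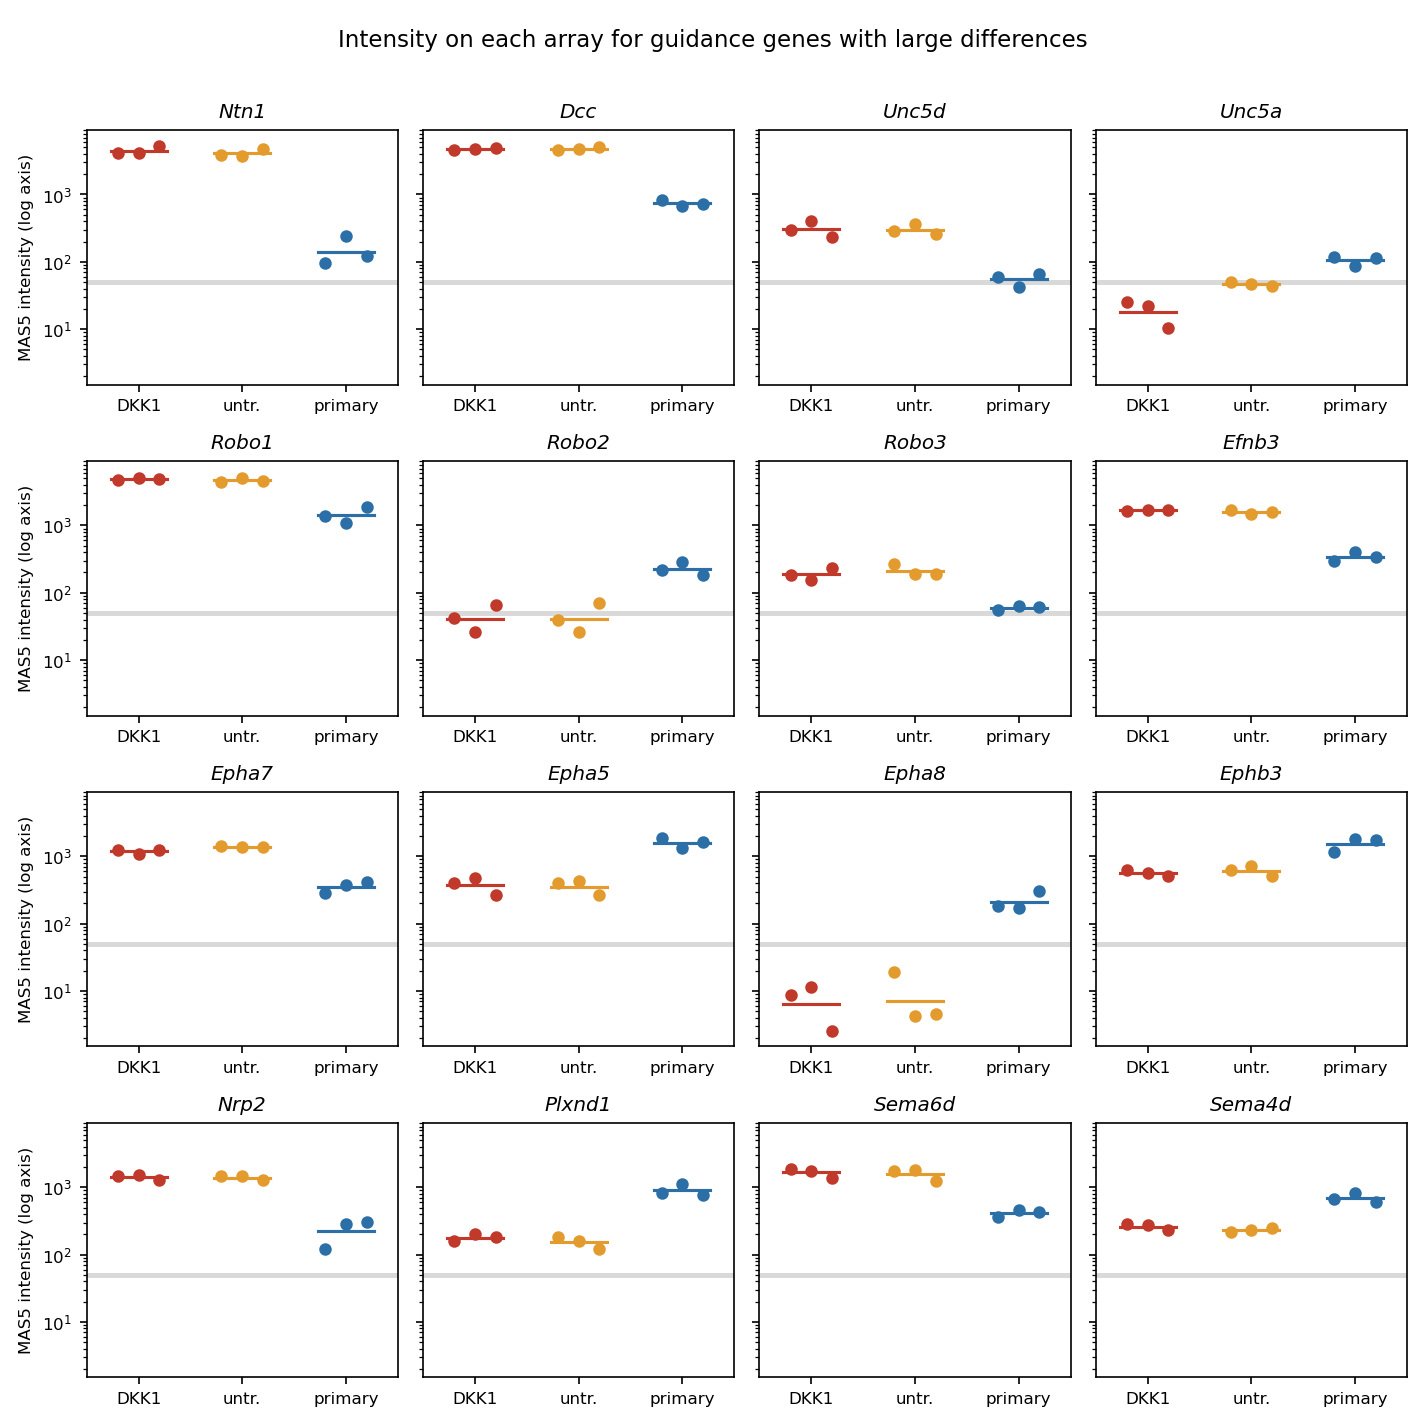
MAS5 intensity on each array (log axis) for 16 guidance genes with large differences. Points are arrays, in the order of replicates 1 to 3, for DKK1-treated, untreated ("untr.") and primary cells from left to right, bars are group means of log2 intensity, and the grey band spans the arrays' 40th percentiles (44.7 to 52.9). Ntn1, Dcc, Unc5d, Robo1, Robo3, Efnb3, Epha7, Nrp2 and Sema6d lie higher in both ESC-RPC groups and Unc5a, Robo2, Epha5, Epha8, Ephb3, Plxnd1 and Sema4d lower, with no overlap.

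The Robo receptors split. Robo1 and Robo3 were higher and Robo2 was lower in both ESC-RPC groups, while Robo4, the Robo of blood vessels, was not called. Robo1, a receptor for Slit repellents, was 4793, 5063 and 4899 in DKK1-treated cells and 4468, 5062 and 4646 in untreated cells, against 1367, 1076 and 1909.5 in primary cells. It was 3.49-fold higher in DKK1-treated cells (log2 difference 1.80 ± 0.16, adjusted p = 8.97e-06) and 3.35-fold higher in untreated cells (1.74 ± 0.16, adjusted p = 1.14e-05). Robo3, which is known for letting commissural axons cross the midline, was 186, 153 and 236 in DKK1-treated cells and 264, 189.6 and 187 in untreated cells, against 55.5, 64.0 and 61.1 in primary cells. The lowest ESC-RPC array was well above the highest primary array, and Robo3 was 3.14-fold higher in DKK1-treated cells (adjusted p = 0.000103) and 3.51-fold higher in untreated cells (adjusted p = 5.42e-05).

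Robo2 is the main Slit receptor of retinal ganglion cell axons. It was 41.5, 25.7 and 66.2 in DKK1-treated cells and 39.6, 25.9 and 69.3 in untreated cells, against 219, 287 and 181 in primary cells. In each ESC-RPC group only replicate 3 lay above its array's 40th percentile, and the arrays of the same number were nearly equal. Robo2 fell by 2.44 on the log2 scale in DKK1-treated cells (SE 0.42, adjusted p = 0.000744) and by 2.44 in untreated cells (SE 0.42, adjusted p = 0.000755), about 5.44-fold and 5.43-fold.

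By their brightest probe sets, the Slit ligands tested differed little. Slit1, a repellent of retinal axons, was 241, 301 and 219 in DKK1-treated cells and 314, 297 and 254 in untreated cells, against 231, 200.2 and 212 in primary cells. Slit2, a second repellent present along the optic pathway, was 1462, 1153 and 1757 in DKK1-treated cells and 1532, 1304 and 1738 in untreated cells, against 905, 1049 and 1350.2 in primary cells. Both were called higher in untreated cells, Slit1 by 1.34-fold (adjusted p = 0.0421) and Slit2 by 1.39-fold (adjusted p = 0.0481), although the Slit2 arrays of the groups overlapped.

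Neither Slit was called in DKK1-treated cells, where Slit1 was 1.17-fold higher (adjusted p = 0.239) and Slit2 1.32-fold higher (adjusted p = 0.0882). A dimmer Slit2 probe set was called higher in DKK1-treated (adjusted p = 0.00789) and untreated cells (adjusted p = 0.0113). Its means were 68.05 and 63.75, against 29.74 in primary cells, which is near background. Another tested Slit2 probe set was not called. The Slit1 call in untreated cells was lost without DKK1 replicate 1, untreated replicate 1 or 2, or primary replicate 2 or 3 (adjusted p 0.0607 to 0.14). That of Slit2 was lost without DKK1 replicate 1, untreated replicate 1 or 3, or primary replicate 1 or 2 (adjusted p 0.0674 to 0.163), and Slit2 was called in DKK1-treated cells without DKK1 replicate 2 (log2 difference 0.56, adjusted p = 0.0322) or primary replicate 3 (0.56, adjusted p = 0.0277). Slit3, the third Slit, was too dim to be tested, at 18.5 to 46.2 in DKK1-treated cells and 24.6 to 91.2 in untreated cells, against 2.34 to 3.25 in primary cells.

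Of the Eph receptors 4 were higher and 4 lower in each ESC-RPC group, of 11 tested. That is 72.7% called in each, against 52.8% of all genes in DKK1-treated cells and 53.0% in untreated cells. These counts include Epha8 and Ephb4, each bright enough to be tested only through the cells in which it was higher. Ephb2 was not among the genes tested. Epha7, a receptor expressed in graded fashion in the developing visual system, was 1224, 1075 and 1258 in DKK1-treated cells and 1439, 1355 and 1379 in untreated cells, against 288, 379 and 412 in primary cells. It was 3.33-fold higher in DKK1-treated cells (log2 difference 1.73 ± 0.14, adjusted p = 2.75e-06) and 3.91-fold higher in untreated cells (1.97 ± 0.14, adjusted p = 1.1e-06). Epha4, which binds ephrins of both classes, was also higher, 1.91-fold in DKK1-treated cells (adjusted p = 0.000626) and 1.68-fold in untreated cells (adjusted p = 0.0025).

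Epha5, a receptor carried in a gradient by mouse retinal ganglion cells, lay lower in ESC-RPCs. It was 404, 474 and 269 in DKK1-treated cells and 408, 424 and 263 in untreated cells, against 1894, 1331 and 1639.7 in primary cells, and no ESC-RPC array came near a primary one. The log2 difference was -2.11 ± 0.24 in DKK1-treated cells (4.31-fold lower, adjusted p = 4.22e-05) and -2.17 ± 0.24 in untreated cells (4.5-fold lower, adjusted p = 3.46e-05). Epha2, an Eph receptor of epithelial cells, was 126, 96.5 and 90.7 in DKK1-treated cells and 76.8, 119 and 131 in untreated cells, against 283, 294 and 372 in primary cells. It was 3.04-fold lower in DKK1-treated cells (adjusted p = 0.000237) and 2.95-fold lower in untreated cells (adjusted p = 0.000282).

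Epha8 was named after its values were seen. It was 8.76, 11.5 and 2.56 in DKK1-treated cells and 19.1, 4.25 and 4.62 in untreated cells, against 182, 168 and 303 in primary cells. All 6 ESC-RPC arrays lay below their 40th percentile, so only a bound can be given. Epha8 was at least 4.46-fold lower in DKK1-treated cells and at least 4.5-fold lower in untreated cells. It was bright enough to be tested through the primary arrays alone, so its p values are not given, although its calls are counted. Epha3 and Epha10 were not called in either comparison. Epha3, a receptor of the retinotectal system in the chick, was 1191, 1508 and 1125 in DKK1-treated cells and 1146, 1492 and 1079 in untreated cells, against 2104, 1041 and 2619.6 in primary cells, where replicate 2 lay below every ESC-RPC array and the other arrays above. Without primary replicate 2, Epha3 was called lower in DKK1-treated cells (log2 difference -0.89, adjusted p = 0.00158) and in untreated cells (-0.94, adjusted p = 0.00119). Its dimmer tested probe sets showed no fall over all 9 arrays and were not called. The brighter of them differed by 0.18 in DKK1-treated and 0.05 in untreated cells, and the other by 0.07 and 0.03. Epha6 was dim in both ESC-RPC groups and reached 51.1 in primary cells, and Epha1 was dim throughout.

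Among the EphB receptors, Ephb1, which directs the ipsilateral turn of ventrotemporal retinal axons at the optic chiasm, was 1264, 1400.2 and 1064 in DKK1-treated cells and 1026, 1184 and 910.0 in untreated cells, against 407, 539 and 436 in primary cells. It was 2.7-fold higher in DKK1-treated cells (adjusted p = 2.22e-05) and 2.26-fold higher in untreated cells (adjusted p = 8.89e-05). Ephb4, known as the receptor of venous endothelium, was 148, 127 and 171 in DKK1-treated cells and 146, 164 and 168 in untreated cells, against 24.2, 51.0 and 9.05 in primary cells. Primary cells were below the 40th percentile on all 3 arrays, so only bounds can be given. Ephb4 was at least 3.11-fold higher in DKK1-treated cells and at least 3.36-fold higher in untreated cells. It was bright enough to be tested through the ESC-RPC arrays alone, so its p values are not given, although its calls are counted. The endothelial markers given above did not move one way, and the part of that cell type in the Ephb4 difference was not tested.

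Ephb3, which with Ephb2 serves dorsoventral pathfinding of retinal axons in the mouse, lay lower. It was 623, 574 and 517 in DKK1-treated cells and 634, 712 and 503 in untreated cells, against 1169, 1805 and 1742 in primary cells. The groups were apart, and Ephb3 was 2.71-fold lower in DKK1-treated cells (log2 difference -1.44 ± 0.18, adjusted p = 8.69e-05) and 2.53-fold lower in untreated cells (-1.34 ± 0.18, adjusted p = 0.000143). Ephb6, which lacks kinase activity, was not called; without primary replicate 2 it was called lower in DKK1-treated cells (-0.92, adjusted p = 0.0297) and untreated cells (-0.82, adjusted p = 0.0482).

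The ligands of these receptors also split. Efnb3, an ephrin-B of the neural midline, was 1637, 1699 and 1673 in DKK1-treated cells and 1667, 1489 and 1589 in untreated cells, against 294, 399.7 and 339.6 in primary cells. Its replicates were tight, and it was 4.89-fold higher in DKK1-treated cells (log2 difference 2.29 ± 0.12, adjusted p = 1.29e-07) and 4.62-fold higher in untreated cells (2.21 ± 0.12, adjusted p = 1.73e-07). Efnb1, a ligand of EphB receptors in the retina and tectum, was 653, 659.8 and 596 in DKK1-treated cells and 671, 671 and 647 in untreated cells, against 369, 404 and 317 in primary cells. It was 1.76-fold higher in DKK1-treated cells (adjusted p = 0.000186) and 1.83-fold higher in untreated cells (adjusted p = 0.000116).

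Efnb2, the ephrin-B of the optic chiasm and of arterial endothelium, was 3618, 3066 and 3513 in DKK1-treated cells and 3582, 3196 and 3489 in untreated cells, against 4382, 5908 and 4704 in primary cells. It was lower in every ESC-RPC array, 1.46-fold in DKK1-treated cells (adjusted p = 0.0022) and 1.45-fold in untreated cells (adjusted p = 0.00253). Of 5 ephrin-A genes, Efna4 and Efna5 were called higher. Efna4 was 437, 465 and 482 in DKK1-treated cells and 451, 534 and 512 in untreated cells, against 225, 239 and 232 in primary cells. That was 1.99-fold higher in DKK1-treated cells (adjusted p = 4.45e-05) and 2.14-fold higher in untreated cells (adjusted p = 2.1e-05).

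Efna5, a repellent that with Efna2 shapes the retinal map in the colliculus, was 1729, 1789 and 2033 in DKK1-treated cells and 1739.7, 2099 and 1930.0 in untreated cells, against 1046, 1724 and 1047 in primary cells. Primary replicate 2 lay just below the lowest ESC-RPC array, and the other primary arrays lay well below. Efna5 was 1.49-fold higher in DKK1-treated cells (adjusted p = 0.0183) and 1.55-fold higher in untreated cells (adjusted p = 0.0118). The DKK1-treated call was lost without DKK1 replicate 3 or primary replicate 1 or 3 (adjusted p 0.0642 to 0.0699). Efna1, Efna2 and Efna3 were not called, and their log2 differences lay between -0.41 and -0.16 in DKK1-treated cells and between -0.62 and -0.01 in untreated cells. Without primary replicate 1, Efna1 was called lower in untreated cells (-0.83, adjusted p = 0.0387).

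Both neuropilins, the ligand-binding receptors of class 3 semaphorins, were higher in ESC-RPCs. Nrp2 was 1486, 1507 and 1289 in DKK1-treated cells and 1457, 1459 and 1274 in untreated cells, against 121, 289.9 and 307 in primary cells. It was 6.44-fold higher in DKK1-treated cells (log2 difference 2.69 ± 0.29, adjusted p = 2.68e-05) and 6.31-fold higher in untreated cells (2.66 ± 0.29, adjusted p = 2.93e-05). Nrp1, which also binds vascular endothelial growth factor, was 1121, 1427 and 1253 in DKK1-treated cells and 997, 1309.8 and 1185 in untreated cells, against 548, 521 and 458 in primary cells. The groups did not overlap, and Nrp1 was 2.48-fold higher in DKK1-treated cells (adjusted p = 1.9e-05) and 2.28-fold higher in untreated cells (adjusted p = 3.82e-05).

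Plxnd1, the plexin through which Sema3e acts on endothelium and neurons, was the plexin that lay lower. It was 157, 199 and 184 in DKK1-treated cells and 185, 159 and 120.2 in untreated cells, against 817, 1137 and 781 in primary cells. Plxnd1 fell by 2.33 ± 0.20 on the log2 scale in DKK1-treated cells (5.01-fold, adjusted p = 5.46e-06) and by 2.56 ± 0.20 in untreated cells (5.89-fold, adjusted p = 2.71e-06). The endothelial markers given above did not move one way, and the part of that cell type in the Plxnd1 difference was not tested.

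Of the other plexins, Plxna1, Plxna2 and Plxnb1 were higher in both ESC-RPC groups by their brightest probe sets. A dimmer Plxnb1 probe set that was also tested was called in neither comparison. Its log2 difference from primary cells was -0.06 after DKK1 and 0.21 without DKK1. Plxna1, a partner of neuropilins, was 1.75-fold higher in DKK1-treated cells (adjusted p = 0.000104) and 1.55-fold higher in untreated cells (adjusted p = 0.000544), and Plxnb1, the Sema4d receptor, was 1.81-fold and 1.72-fold higher (adjusted p = 0.000137 and 0.000239). Plxna2 was 1.37-fold higher in DKK1-treated cells (adjusted p = 0.00452) and 1.28-fold higher in untreated cells (adjusted p = 0.0154), and the untreated call was lost without untreated replicate 1 (adjusted p = 0.0724).

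Plxnb3 and Plxnc1 were called in DKK1-treated cells and not in untreated cells. Plxnb3, the receptor of Sema5a, was 93.7, 119 and 98.0 in DKK1-treated cells and 92.0, 53.9 and 70.7 in untreated cells, against 65.9, 44.1 and 45.9 in primary cells. It was 2.02-fold higher in DKK1-treated cells (adjusted p = 0.0114) and 1.38-fold higher in untreated cells (adjusted p = 0.189). Plxnc1, the receptor of Sema7a, was 1265, 1459 and 954 in DKK1-treated cells and 1094, 1295 and 919.9 in untreated cells, against 893, 954 and 825 in primary cells. In DKK1-treated cells it was 1.36-fold higher (adjusted p = 0.045), a call lost without DKK1 replicate 1 or 2, untreated replicate 1 or primary replicate 1 or 3 (adjusted p 0.0639 to 0.172), and in untreated cells 1.23-fold higher (adjusted p = 0.159).

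Plxna3, Plxna4 and Plxnb2 were not called in either comparison. Plxnb2 was 913, 884 and 942 in DKK1-treated cells and 1033, 1017 and 1023 in untreated cells, against 1229.8, 761 and 1467 in primary cells, where replicate 2 was again the lowest. Without primary replicate 2 it was called lower in DKK1-treated cells (log2 difference -0.56, adjusted p = 0.000731) and in untreated cells (-0.39, adjusted p = 0.00569). Plxna3 was called higher in untreated cells without primary replicate 1 (0.54, adjusted p = 0.0387).

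Most semaphorins were not called: of 20 tested, 5 were higher and 2 lower in DKK1-treated cells, and 4 higher and 2 lower in untreated cells. That is 35.0% called in DKK1-treated cells, against 52.8% of all genes, and 30.0% in untreated cells, against 53.0%. Sema3c, a secreted semaphorin that acts on axons and on cardiac neural crest, was 582, 519.6 and 458 in DKK1-treated cells and 518, 540.2 and 465 in untreated cells, against 136, 245 and 139 in primary cells. It was 3.11-fold higher in DKK1-treated cells (adjusted p = 0.000108) and 3.04-fold higher in untreated cells (adjusted p = 0.000125). Sema3a, the repellent read by Nrp1, was 406, 387 and 353 in DKK1-treated cells and 354, 373 and 357 in untreated cells, against 277, 336 and 194 in primary cells.

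The groups did not overlap for Sema3a, which was 1.46-fold higher in DKK1-treated cells (adjusted p = 0.0276) and 1.38-fold higher in untreated cells (adjusted p = 0.0521). The DKK1-treated call was lost without DKK1 replicate 1 or 2 or primary replicate 3 (adjusted p 0.0676 to 0.0877), and a call was made in untreated cells without primary replicate 2 (log2 difference 0.64, adjusted p = 0.00642). The other 5 class 3 semaphorins were not called, and their log2 differences lay between -0.56 and 0.52 in DKK1-treated cells and between -0.61 and 0.52 in untreated cells. Among them Sema3e, the ligand of Plxnd1, was called higher without primary replicate 2, at 0.79 in DKK1-treated cells (adjusted p = 0.0105) and 0.57 in untreated cells (adjusted p = 0.0431). Without DKK1 replicate 2, Sema3g was called lower in DKK1-treated cells (adjusted p = 0.0387).

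Among the 13 membrane semaphorins, Sema6d, Sema6a and Sema4b were higher and Sema4d and Sema7a lower in both ESC-RPC groups. Sema6d, which with plexin-A1 and Nrcam guides retinal axons at the chiasm, was 1897, 1752 and 1375 in DKK1-treated cells and 1726, 1808 and 1259 in untreated cells, against 364, 467 and 426 in primary cells. It was 3.98-fold higher in DKK1-treated cells (log2 difference 1.99 ± 0.17, adjusted p = 4.91e-06) and 3.79-fold higher in untreated cells (1.92 ± 0.17, adjusted p = 6.61e-06). Sema6a, a ligand of plexin-A2 and plexin-A4, was 913, 879 and 707 in DKK1-treated cells and 759.5, 898 and 739 in untreated cells, against 378, 434 and 399 in primary cells. That was 2.05-fold higher in DKK1-treated cells (adjusted p = 8.31e-05) and 1.97-fold higher in untreated cells (adjusted p = 0.000125). A dimmer Sema6a probe set was called higher in untreated cells (log2 difference 0.65) and not in DKK1-treated cells (0.48). Another was called in neither, at 0.39 in DKK1-treated and -0.10 in untreated cells.

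Sema4d, the ligand of Plxnb1, was 284, 272 and 228 in DKK1-treated cells and 215, 229 and 252 in untreated cells, against 678, 815 and 609.8 in primary cells. It was 2.67-fold lower in DKK1-treated cells (log2 difference -1.42 ± 0.15, adjusted p = 2.15e-05) and 3.01-fold lower in untreated cells (-1.59 ± 0.15, adjusted p = 9.65e-06). With all of its probe sets averaged, the difference in untreated cells shrank to -0.54 and was no longer called (adjusted p = 0.134). Sema7a, a membrane-anchored semaphorin that promotes axon growth, was 1.46-fold lower in DKK1-treated cells (adjusted p = 0.0188) and 1.49-fold lower in untreated cells (adjusted p = 0.0153). Its calls were lost without primary replicate 3 in both comparisons (adjusted p = 0.0661 and 0.0538), without DKK1 replicate 3 in the first (adjusted p = 0.0723) and without untreated replicate 3 in the second (adjusted p = 0.0562).

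The remaining 8 membrane semaphorins were not called. The largest difference among them was that of Sema6c, at 155, 225 and 152 in DKK1-treated cells and 205, 209 and 100.2 in untreated cells, against 141, 30.1 and 101 in primary cells. Without primary replicate 1, Sema6c was called higher in DKK1-treated cells (log2 difference 1.67, adjusted p = 0.0217) and in untreated cells (1.56, adjusted p = 0.0283). Sema4a was called higher without primary replicate 2 (1.19 and 0.99, adjusted p = 0.00224 in DKK1-treated and 0.0062 in untreated cells), Sema5b in untreated cells without the same array (adjusted p = 0.0106), and Sema4c in both without primary replicate 3 (0.38 and 0.37, adjusted p = 0.0153 and 0.0175).

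Most genes had more than 1 probe set, and the others were also compared. Of 41 other tested probe sets of genes called in DKK1-treated cells against primary cells, 37 had the same sign and 29 of these were called themselves. In untreated cells 36 of 39 had the same sign and 31 of these were called. No gene had 2 probe sets called in opposite directions.

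Between DKK1-treated and untreated ESC-RPCs no guidance gene was called, and none was called among all 13302 genes (0% of them, limma, smallest adjusted p = 0.979). This main fit pooled the spread over all 3 groups, primary cells included, and did not pair arrays by replicate number. The lack of calls therefore does not show that the ESC-RPC groups were alike. With the ESC-RPC arrays fitted alone, no guidance gene was called either, with adjusted p = 0.86 for Unc5a and for Neo1 (limma). In the main fit without the intensity trend 1 gene was called, which was no guidance gene. At an unadjusted p below 0.05 the main fit held 2 guidance genes, Unc5a and Neo1, beside 307 genes in all (2.31%). With the replicate block given below, that share of all genes was 15.0%. The 3 arrays of each group did not overlap for 8 guidance genes, beside 12.0% of all genes. Neo1, Unc5b and Plxnb3 were higher on every DKK1-treated array (5.24% of all genes were), and Unc5a, Sema3d, Epha7, Plxnb2 and Sema5b were lower (6.73% of all genes). For the 61 members that were not dim in either group, log2 differences lay between -0.23 for Epha7 and 0.55 for Plxnb3, with a median of 0.04. The other 3, Unc5a, Sema3d and Epha8, were dim in 1 or both ESC-RPC groups.

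Unc5a lay below the 40th percentile on all 3 DKK1-treated arrays and above it on 2 of the 3 untreated arrays, so no fold or difference is given (unadjusted p = 0.00427, adjusted p = 1). Sema3d, a secreted semaphorin of neural and heart development, was 32.1, 41.8 and 40.3 in DKK1-treated cells, against 46.9, 86.2 and 53.1 in untreated cells, and 45.6, 47.1 and 34.0 in primary cells. All 3 DKK1-treated arrays were dim for Sema3d, which was at least 1.27-fold lower than in untreated cells (unadjusted p = 0.0792, adjusted p = 1).

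The values of Unc5b, Plxnb3, Neo1 and Epha7 given above differed by 0.42 ± 0.20, 0.55 ± 0.28, 0.20 ± 0.09 and -0.23 ± 0.14 on the log2 scale in DKK1-treated against untreated cells, in that order. Sema3f, a repellent read mainly by Nrp2, was 305, 412 and 402 in DKK1-treated cells, against 276, 326 and 269.6 in untreated cells and 337, 301 and 398 in primary cells. Its log2 difference was 0.35 ± 0.16 (unadjusted p = 0.0525). Epha10, an Eph receptor without kinase activity, was 188, 220.5 and 232 in DKK1-treated cells, against 173, 143 and 198 in untreated cells and 171, 180.1 and 165 in primary cells. The DKK1-treated and untreated arrays of both genes overlapped.

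Arrays of the same replicate number deviated together in the ESC-RPC groups, as described with the processing. With the replicate number as a block on these 6 arrays, 66 genes were called in all (0.496%), and none of them was a guidance gene. Among guidance genes 14 had an unadjusted p below 0.05 in that fit, beside 15.0% of all genes. The smallest adjusted p values were 0.0719 for Neo1, 0.0744 for Ephb1 and 0.102 for Epha7. Ephb1 was higher in each pair, by 0.30, 0.24 and 0.23, and Neo1 by 0.16, 0.22 and 0.22. Epha7 differed by -0.23, -0.33 and -0.13. In all 3 pairs 15 guidance genes were higher, as were 18.4% of all genes, and 10 were lower, as were 19.0% of all genes. The 7 genes called against primary cells in 1 ESC-RPC group and not in the other were Slit1, Slit2 and Unc5c in untreated cells, and Sema3a, Plxnb3, Plxnc1 and Unc5b in DKK1-treated cells. Since none of them was called between the ESC-RPC groups themselves, these 7 do not show a difference between DKK1-treated and untreated cells.

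**Figure D4:**
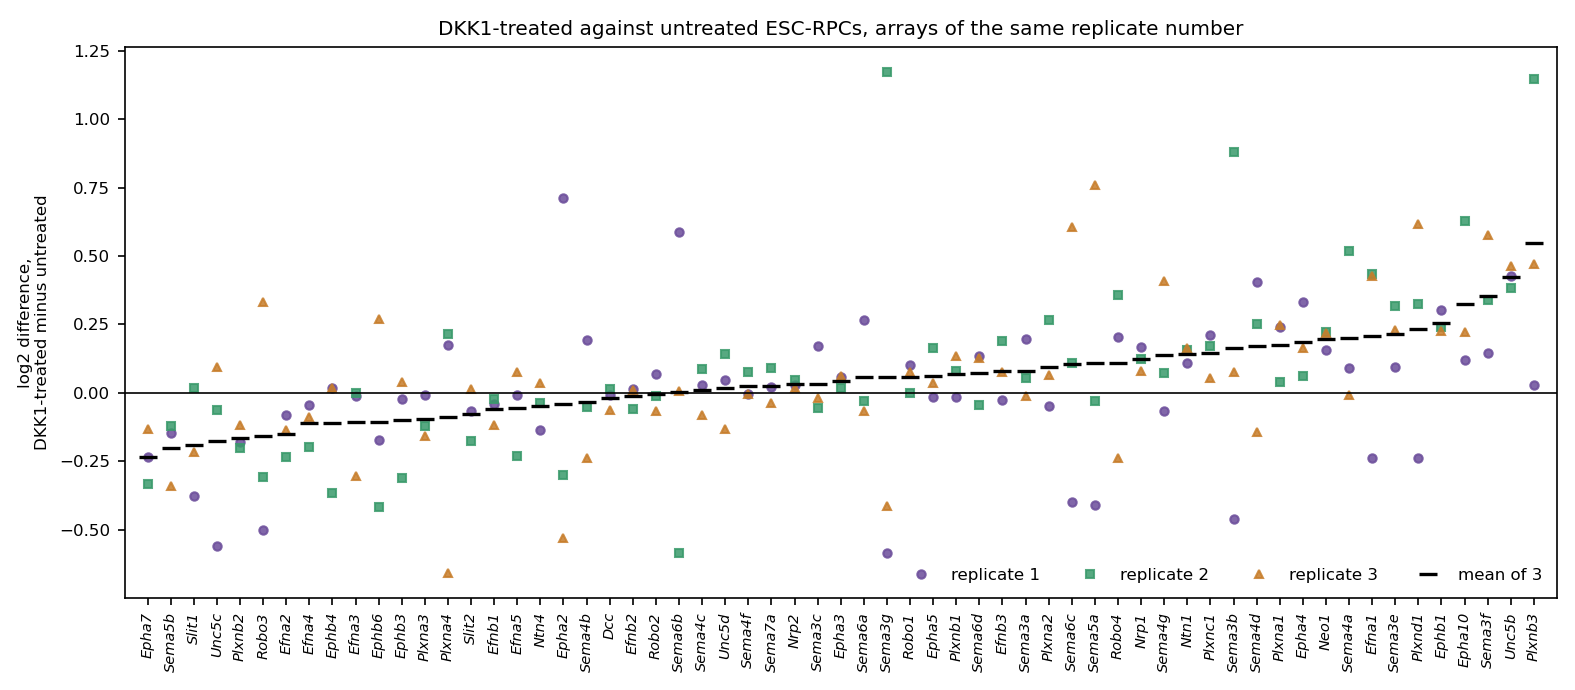
Log2 difference between DKK1-treated and untreated ESC-RPC arrays of the same replicate number (y axis) for the 61 guidance genes tested that were not dim in either group, ordered by their mean (black bar). Each point is 1 pair of arrays. Epha7 has the lowest mean, at -0.23, with all 3 pairs below 0, and Plxnb3 the highest, at 0.55, with all 3 above 0.

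Of 26 further cues and co-receptors 65.4% were called in each comparison, against 52.8% and 53.0% of all genes. In this list 11 were higher and 6 lower in DKK1-treated cells, and 10 higher and 7 lower in untreated cells, against primary cells. Rgma, a repulsive ligand of neogenin, was 11.1-fold higher in DKK1-treated cells (adjusted p = 1.17e-06) and 11.4-fold higher in untreated cells (adjusted p = 1.06e-06). Flrt3, which binds Unc5 receptors, was 4.48-fold and 4.8-fold higher in DKK1-treated and untreated cells (adjusted p = 3.45e-07 and 2.5e-07). The adhesion molecule Chl1 was 5.67-fold and 5.22-fold higher (adjusted p = 1.55e-05 and 2.21e-05). Cntn2, an adhesion molecule of commissural axons, was dim in primary cells. It was bright enough to be tested through the ESC-RPC arrays alone, so no p value is given. The gene was at least 13.7-fold higher in DKK1-treated cells and at least 15.9-fold higher in untreated cells. L1cam, Nrcam, Ntng2, Cntn4 and Islr2 were lower in both.

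Of 50 intracellular effectors tested, 56.0% were called in DKK1-treated cells and 52.0% in untreated cells, near the 52.8% and 53.0% of all genes. In this list 15 were higher and 13 lower in DKK1-treated cells, and 12 higher and 14 lower in untreated cells. Tiam1, an activator of Rac, was 3.69-fold lower in DKK1-treated cells and 3.4-fold lower in untreated cells (adjusted p = 1.52e-07 and 2.43e-07), and Ablim1, an actin-binding protein, was 2.69-fold and 2.67-fold lower (adjusted p = 6.12e-05 and 6.47e-05). Enah, which drives actin filament growth at the leading edge, was 1.45-fold and 1.5-fold higher (adjusted p = 6.96e-05 and 4.17e-05), and the kinase Cdk5 was 1.94-fold and 1.97-fold higher (adjusted p = 0.000362 and 0.000307). No gene of either list was called between DKK1-treated and untreated cells.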

How the data were processed

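Total RNA was amplified and biotin-labelled with a 3-prime kit, per the labels' protocols. The deposited values are MAS5 intensity values, per the submitters' processing notes, which give no version. The trimmed mean of each array was 500. The genome build of the authors' annotation is not given in the sources used here. Depth has no meaning for arrays, and 3 arrays per group limit the precision: the median SE of a log2 difference over the guidance genes was 0.18.

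Of 45101 probe sets, 34945 had exactly 1 gene symbol. Log2 was taken without further normalisation. A gene was tested if, on 3 or more of the 9 arrays, its brightest probe set exceeded that array's 40th percentile. A group below that percentile on all 3 arrays is called dim, and its fold is a bound computed against those percentiles. All 9 arrays were fitted together with limma 3.58.1 in R 4.3.3 (1 mean per group, intensity trend, two-sided moderated test, Benjamini-Hochberg over 13302 genes, called below 0.05). Promoter windows and chromosome names are RefSeq's. Columns of other samples in the table numbered 0. In simulated data for DKK1-treated against untreated cells, 13302 genes with 200 changed, the fit recovered 21.3% of log2 changes of 0.5, 54.4% of 1 and 88.7% of 2, with 11 false calls among 124. The simulated noise was independent between arrays and had the same spread in all 3 groups. It held no shared deviation of arrays of the same number, so these rates need not hold for the real comparison.

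Values per array are given for up to 3 called genes per family with the smallest adjusted p and groups that do not overlap, for Nrp1, Nrp2, Dcc, Neo1, Ntn1 and Ntn4, for genes called in 1 ESC-RPC group only, and for the 8 genes with the smallest unadjusted p after DKK1. Epha3, Epha8, Plxnb2, Sema6c and Slit3 were added after their values were seen. The genes, families, lists and tests were chosen with earlier results of these data known. Alternatives covered the normalisation, the filter, the probe sets, a pseudocount, the intensity trend, the replicate block and each array left out.

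The labels number the replicates 1 to 3 in each group without saying what a number shares. Deviations from group means correlated across genes at 0.127, 0.187 and 0.319 between DKK1-treated and untreated arrays of the same number, and at -0.222 to 0.0613 between different numbers. The numbers were therefore taken to pair the ESC-RPC arrays, on the values alone. Same-number correlations with primary arrays were -0.0401 to 0.00196.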

Additional observations from a re-analysis of the deposited data

How the results depend on the processing

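Over the guidance genes as a whole, the counts stayed within 1.5 times those reported under each alternative run: in DKK1-treated against primary cells 22 to 29 higher and 9 to 13 lower, in untreated against primary cells 21 to 29 higher and 8 to 13 lower, and none between the ESC-RPC groups. With 1 array left out they were 24 to 29 and 9 to 13 in DKK1-treated cells and 21 to 29 and 8 to 13 in untreated cells. With the replicate number as a block on all 9 arrays, 29 were higher and 10 lower in DKK1-treated cells, and 28 higher and 10 lower in untreated cells. Shares over all genes in these alternative fits are not given. The block changed these single calls among the genes named: Plxnc1, Sema3a and Unc5b were called in untreated cells (adjusted p = 0.0392, 0.04 and 0.0325), Slit2 in DKK1-treated cells (0.0204), and Unc5c was lost in untreated cells (0.0559). Averaging all probe sets of a gene turned the log2 difference of Plxnb3 to -0.54 and Sema3d to 0.14 between DKK1-treated and untreated cells, of Neo1 to -0.13, Slit1 to -0.10 and Unc5c to -0.027 in DKK1-treated against primary cells, and of Slit1 to -0.061 in untreated cells. It also ended the calls of Efna5, Plxnb3 and Plxnc1 in DKK1-treated cells and of Efna5, Sema4d (-0.54, adjusted p = 0.134) and Unc5c in untreated cells. These averages took in probe sets too dim to be tested. The other probe sets of Sema4d, Sema3d, Plxnb3 and Efna5 were all too dim, while those of Slit1, Neo1 and Unc5c were not. Neo1 in untreated against primary cells turned to 0.044 with all arrays set to 1 median, and with 1 array left out it lay between -0.108 and 0.049, above 0 without untreated replicate 3 (0.003) or primary replicate 3. The causes were not tested. Of 37 members called in DKK1-treated cells 32 were called whichever array was left out, and of 36 in untreated cells 29. Genes near the 40th percentile, Unc5a, Robo2, Unc5d and Sema3d among them, have values close to background.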

Other observations

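Some genes that were not called by their brightest probe set had another probe set that was. Among them were Sema3e, higher in untreated cells (adjusted p = 0.0415), and Sema4a, higher in DKK1-treated cells (adjusted p = 0.0459). For Sema3a, read by Nrp1, a second probe set was higher in untreated than in primary cells, by 0.90 on the log2 scale (adjusted p = 0.0031), with means of 167.5 in DKK1-treated and 151.7 in untreated cells, against 81.92 in primary cells. Sema5a, a semaphorin read by Plxnb3, had a second probe set that was lower in both ESC-RPC groups. Its means were 107.0 in DKK1-treated and 110.1 in untreated cells, against 242.9 in primary cells, with log2 differences of -1.18 (adjusted p = 0.00065) and -1.13 (adjusted p = 0.000892). Neo1 and Sema3f each had a dimmer probe set called lower in both ESC-RPC groups, while their other tested probe sets were not called. For Neo1 its means were 43.6 in DKK1-treated and 41.95 in untreated cells, against 84.46 in primary cells (adjusted p = 0.0246 and 0.0164). For Sema3f they were 85.49 and 64.43, against 205.9 (adjusted p = 0.0175 and 0.00226).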
